A study of Homo sapiens with 6 samples.

Results

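The nuclear genes of oxidative phosphorylation were taken from the gene tables by symbol: subunit genes of complex I (NDUFA, NDUFB, NDUFC, NDUFS and NDUFV), complex II (SDHA to SDHD), complex III (UQCR genes and CYC1), cytochrome c (CYCS), complex IV (COX4 to COX8 genes) and ATP synthase (ATP5 genes). The pattern found 87 of the 23228 genes in the tables, of which 37 belong by name to complex I, 4 to complex II, 10 to complex III, 1 is cytochrome c, 16 belong to complex IV and 19 to ATP synthase. The symbols are those of the deposited annotation, so ATP synthase genes appear under their older ATP5 names. The subunits that the mitochondrial genome encodes were not analysed here.

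Oxidative phosphorylation is the way mitochondria turn nutrients into ATP. Complexes I and II pass electrons from NADH and succinate to ubiquinone, complex III passes them to cytochrome c, and complex IV passes them to oxygen; complexes I, III and IV pump protons, and ATP synthase uses the returning protons to make ATP. The liver is rich in mitochondria and depends on this pathway for the synthesis of glucose, urea and plasma proteins.

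RNA-seq was performed on Hep3B cells, a human hepatocellular carcinoma line, grown in RPMI medium. The 3 control libraries came from cells transduced with lentivirus carrying a non-targeted shRNA, and the 3 PELP1-KD libraries from cells transduced with lentivirus carrying an shRNA against PELP1, a coregulator of nuclear receptors. The sample titles of this group point to shRNA 1, whereas the treatment text lists 2 PELP1 shRNAs. The PELP1-KD cells were selected with puromycin and kept as pooled stable clones, and both groups carry a lentiviral insertion. The labels do not say whether the 3 replicates of a group were separate transductions or cultures, so p-values measure the spread between these samples, which may be technical.

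PELP1 itself (chr17:4574679-4607632, hg19) had 4893, 4914 and 5102 normalized reads in control replicates 1 to 3 and 4421, 4825 and 4840 in those labelled PELP1-KD. The groups did not overlap, but the difference was small, at 94.5% of control, and was not called (log2 fold change -0.08, SE 0.041, 95% interval -0.17 to 0.0040; edgeR quasi-likelihood test, adjusted p = 0.101). The targeted transcript therefore did not verify the labels of this group, and PELP1-KD stands below for the libraries labelled so. For Hep3B cells with PELP1 shRNAs the paper reports less PELP1 protein by Western blotting, and protein is not part of these data. In the edgeR fit blocked on replicate the adjusted p of the PELP1 transcript was 0.0106, and in the edgeR fit without PELP1-KD replicate 3 it was 0.0180. The total read count per library was 32945954 to 34456542 in control and 26758363 to 31535892 in PELP1-KD. The markers fixed for liver cells, AFP, ALB, APOA1, APOB, TTR, SERPINA1, HNF4A and GPC3, were all expressed, and their summed level was 9526 to 9747 RPKM (reads per kilobase of exon in every 1000000 reads) in control and 8658 to 8827 in PELP1-KD. The 11 markers of blood, endothelial and stromal cells summed to 27.1 to 30.2 RPKM in control and 35.6 to 37.8 in PELP1-KD. CD68, a macrophage marker, held most of this sum, and the other 10 markers summed to 4.64 to 5.56 RPKM in control and 3.58 to 3.795 in PELP1-KD. Of the 11 markers, 5 (PTPRC, VWF, CDH5, LYVE1 and ACTA2) had at most 10 reads in any library, with CDH5 at 0 in all. Of the 8 liver markers 2 rose and 6 fell, and of the 6 tested markers of other cells 2 rose (CD68 and COL1A1) and 2 fell (CD14 and PDGFRB), beside 26.8% of all genes tested in each direction at an adjusted p below 0.05. The part of other cell types in the results that follow was not tested.

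Many genes of this pathway are known to carry sites for NRF1, for GABP and other ETS factors, or for YY1 close to their start. The 100 bases upstream of the annotated start are shown for 6 of the 7 genes that carried such a motif there and whose call held under every alternative setting, and for COX7B, which had the largest change and carried none. Capitals mark a match on either strand to the NRF1 core GCGCANGCG (reverse complement CGCNTGCGC) or, in COX5B, to the ETS core CCGGAAG. Sequences are from hg19, given in the direction of transcription.
NDUFA12: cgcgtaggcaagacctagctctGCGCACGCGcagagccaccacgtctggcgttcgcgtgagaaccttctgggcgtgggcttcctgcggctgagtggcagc
NDUFA9: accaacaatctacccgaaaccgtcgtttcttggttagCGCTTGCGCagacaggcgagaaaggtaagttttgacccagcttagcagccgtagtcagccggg
UQCRC1: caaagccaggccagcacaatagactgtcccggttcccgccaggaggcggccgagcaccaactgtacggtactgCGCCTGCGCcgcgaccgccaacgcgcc
COX5B: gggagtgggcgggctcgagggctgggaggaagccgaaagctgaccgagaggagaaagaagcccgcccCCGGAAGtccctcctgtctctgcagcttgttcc
COX7B: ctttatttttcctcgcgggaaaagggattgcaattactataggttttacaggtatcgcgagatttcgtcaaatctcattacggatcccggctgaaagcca
ATP5L: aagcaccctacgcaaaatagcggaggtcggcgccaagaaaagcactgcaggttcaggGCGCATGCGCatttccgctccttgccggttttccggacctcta
ATP5D: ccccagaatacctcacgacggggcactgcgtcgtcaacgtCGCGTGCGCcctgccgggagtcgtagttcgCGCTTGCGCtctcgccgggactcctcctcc
The windows lie at chr12:95397512-95397611 (minus strand) for NDUFA12, chr12:4758164-4758263 (plus) for NDUFA9, chr3:48647099-48647198 (minus) for UQCRC1, chr2:98262421-98262520 (plus) for COX5B, chrX:77154861-77154960 (plus) for COX7B, chr11:118272004-118272103 (plus) for ATP5L and chr19:1241649-1241748 (plus) for ATP5D. NDUFA12, NDUFA9, UQCRC1, COX5B, COX7B and ATP5L rose in PELP1-KD and ATP5D fell, so the NRF1 core was found upstream of genes called in either direction. The capitals of ATP5L join overlapping matches on the 2 strands, and ATP5D carries 2 separate matches.

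Oxidative phosphorylation genes changed little in PELP1-KD, and more of them rose than fell. Of the 87 genes, 79 had enough reads to be tested, and each of these had at least 155 reads in every library, so none entered through 1 group alone. At an adjusted p below 0.05 (edgeR, adjusted over all 14537 genes tested), 28 of the 79 rose, which is 35.4%, beside 26.8% of all genes tested. Only 8 of the 79 fell, which is 10.1%, beside 26.8% of all genes tested. In either direction 36 were called, or 45.6%, beside 53.6% of all genes tested, and the remaining 43 were not called. With the replicate number as a block, 36 rose and 13 fell. The number that fell was 5 when control replicate 2 or PELP1-KD replicate 2 was left out, and 12 without PELP1-KD replicate 3. For these and the other alternative fits below, the share of all genes called is not given. Their counts therefore cannot be set against all genes.

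The changes were narrow in size. The log2 fold changes ran from -0.19 (NDUFA7) to 0.42 (COX7B), with a median of 0.065 over the 79 genes and of 0.0044 over all genes tested. None of the 79 was both called and changed at least 2-fold, beside 7.65% of all genes tested, and the 95% intervals of all 79 lay between -0.42 and 0.51. These genes were measured more closely than most, with a median SE of 0.042 against 0.063 over all genes tested. The values of all 3 PELP1-KD libraries lay above those of all 3 control libraries for 33 genes (41.8%, beside 29.5% of all genes tested), and below them for 12 genes (15.2%, beside 29.3%).

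**Figure D1:**
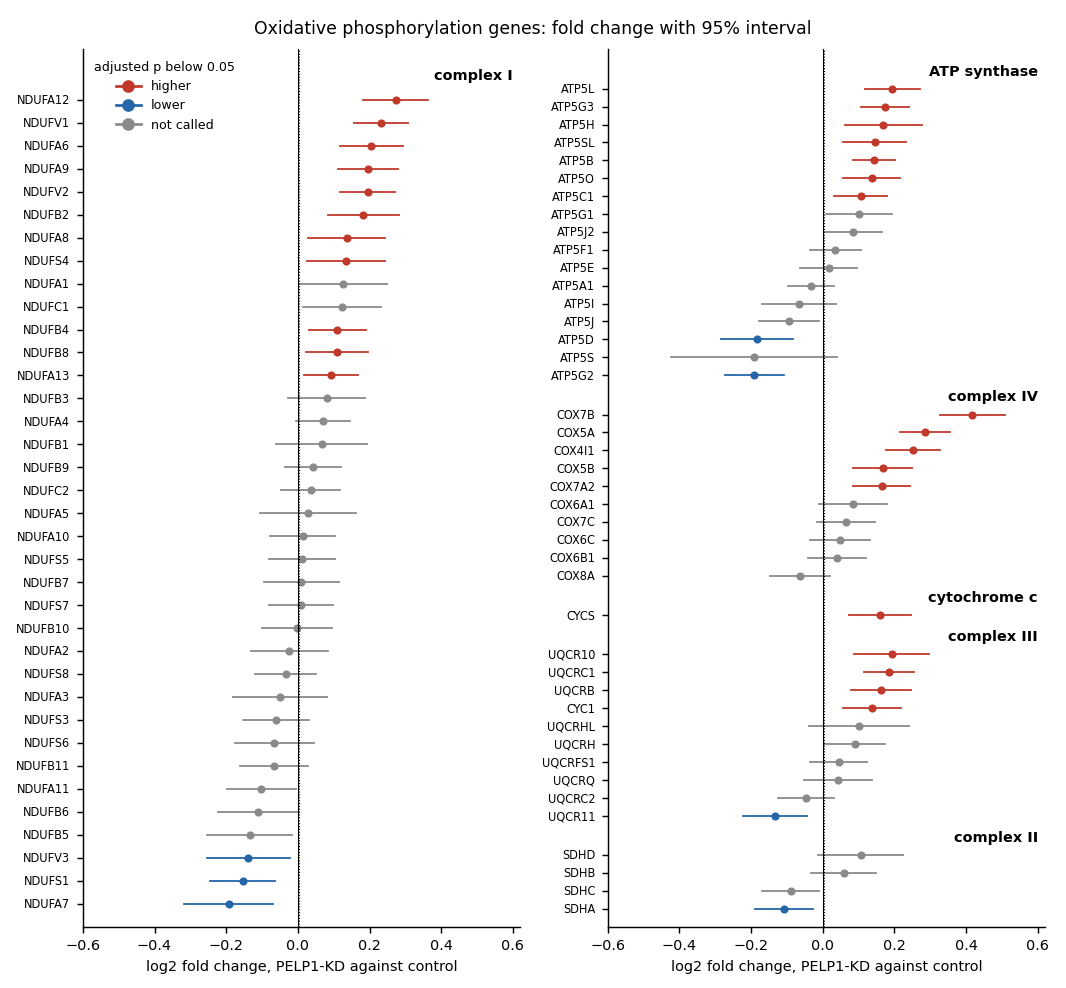
Log2 fold change (x axis, PELP1-KD against control) of tested oxidative phosphorylation genes (y axis), grouped by complex, with its 95% interval from the edgeR fit. Red and blue mark genes called higher and lower at an adjusted p below 0.05, gray those not called, and the dotted line is the median of all genes tested. The points lie between -0.19 and 0.42, and complex IV holds no blue point.

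By complex, the count of genes that rose was 11 of 37 tested in complex I, 0 of 4 in complex II, 4 of 10 in complex III, 5 of 10 in complex IV and 7 of 17 in ATP synthase, and cytochrome c rose as well. The share that rose was 29.7% in complex I, 40.0% in complex III, 50.0% in complex IV and 41.2% in ATP synthase, beside 26.8% of all genes tested, so complex I stood near that share and the 4 genes of complex II are too few to set against it. The count that fell was 4, 1, 1, 0 and 2 in the same order of complexes. The median log2 fold change was 0.029 in complex I, -0.016 in complex II, 0.095 in complex III, 0.12 in complex IV and 0.085 in ATP synthase. Differences between complexes were not tested.

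Summed over its genes, complex IV moved most. Its genes together took 1700, 1705 and 1746 of every 1000000 reads in control and 1892, 1936 and 2006 in PELP1-KD, so the groups did not overlap and the mean was 113% of control. Cytochrome c reached 112%, complex III 107%, ATP synthase 105% and complex I 105% of control, and complex II stood at 97.2%. All 87 genes together took 11229 ± 39.6 of every 1000000 reads in control and 11968 ± 230 in PELP1-KD (SD, n = 3), or 107%.

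The levels of the genes within a complex were far apart except in complex II, although the products are needed in fixed ratios. Per length, over the 6 libraries, ATP5B was the highest of all with 645 RPKM and ATP5S the lowest of the tested genes with 2.69, and the median was 91.0. NDUFV1 (380 RPKM) and NDUFA10 (11.8) were the extremes of complex I, SDHA (71.0) and SDHC (43.2) of complex II, UQCRH (223) and UQCRB (27.8) of complex III, COX5A (562) and COX6C (79.5) of complex IV, and ATP5B (645) and ATP5J (63.0) of the ATP synthase subunits, which do not include ATP5S. These orders held in both groups for the highest gene of each complex except complex III, in which UQCRC1 and UQCRH were level in PELP1-KD (233 ± 7.54 and 230 ± 8.77 RPKM, SD, n = 3).

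**Figure D2:**
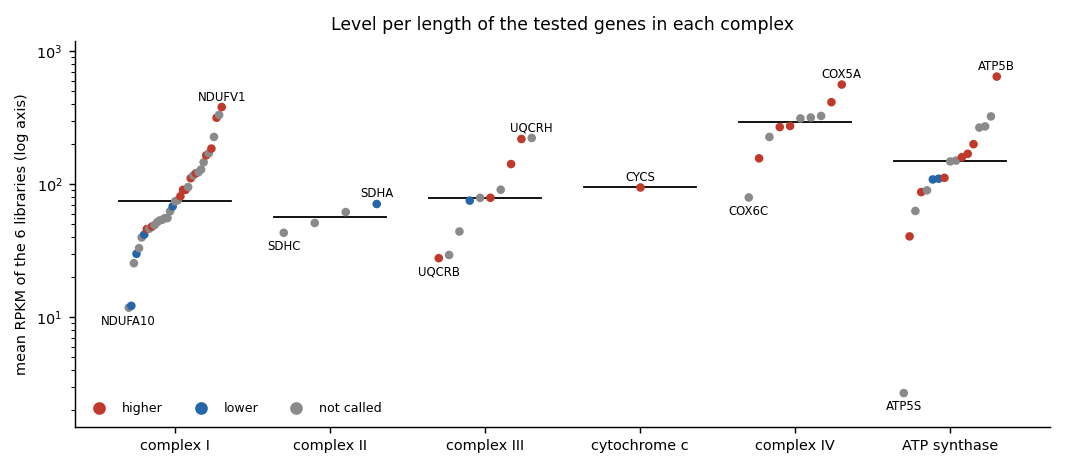
Mean RPKM over the 6 libraries (y axis, log scale) of each tested gene, by complex (x axis), with the genes of a complex spread from lowest to highest and the median as a line. Colors give the call in PELP1-KD against control. The highest gene is ATP5B at 645 RPKM and the lowest ATP5S at 2.69.

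Complex IV, cytochrome c oxidase, reduces oxygen, and its nuclear subunits surround a core that the mitochondrial genome encodes. COX7B, a small membrane subunit (chrX:77154961-77160881), had 3297, 3180 and 3429 normalized reads in control and 4388, 4226 and 4614 in PELP1-KD. The lowest PELP1-KD library stood well above the highest control library. The level was 134% of control (log2 fold change 0.42, SE 0.043, 95% interval 0.33 to 0.51; edgeR, adjusted p = 9.1e-08), and over the alternative settings the log2 fold change was 0.38 to 0.45.

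COX5A, a subunit on the matrix side (chr15:75212617-75230495), had 12073, 12399 and 12258 normalized reads in control and 14918, 14367 and 15464 in PELP1-KD, which is 122% (log2 fold change 0.29, SE 0.033; edgeR, adjusted p = 5.6e-07). COX4I1, the common form of the largest nuclear subunit (chr16:85833173-85840607), had 9621, 9730 and 10026 in control and 11099, 11854 and 12018 in PELP1-KD, which is 119% (log2 fold change 0.25, SE 0.036; edgeR, adjusted p = 6.61e-06). In both genes the gap between the groups was wider than the range within either group. COX5B (log2 fold change 0.17) and COX7A2 (0.16) rose as well, to 112% of control each, with no overlap between groups.

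The remaining 5 tested genes of complex IV did not pass the test. Their log2 fold changes were 0.083 for COX6A1, 0.065 for COX7C, 0.048 for COX6C, 0.040 for COX6B1 and -0.063 for COX8A. COX6A1 had 5212, 5318 and 5316 normalized reads in control and 5171, 5582 and 6033 in PELP1-KD, so that PELP1-KD replicate 1 lay within the control range; with the replicate block it was called higher (edgeR, adjusted p = 0.0174), and likewise without PELP1-KD replicate 1 (adjusted p = 0.00784). COX8A had 3659, 3624 and 3791 in control and 3419, 3655 and 3531 in PELP1-KD, and the groups overlapped.

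Complex IV also has tissue-restricted isoforms, and those genes were nearly silent in both groups. COX6A2 and COX7A1, the forms of heart and skeletal muscle, and COX8C, a testis form, had 0 reads in all 6 libraries. COX7B2 had 1 read in a single PELP1-KD library, and COX4I2, the lung and hypoxia form, had 1, 2 and 0 reads in control and 0 in each PELP1-KD library. COX6B2, a testis form, had 1, 0 and 1 reads in control and 0, 4 and 5 in PELP1-KD. At these depths a count of 0 allows up to 3 reads per library, and no difference was detectable. The common partner of each was abundant: COX7A2 had 148 ± 1.33 RPKM in control and 165 ± 3.01 in PELP1-KD, and COX6B1 308 ± 9.42 and 317 ± 10.6 (SD, n = 3).

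**Figure D3:**
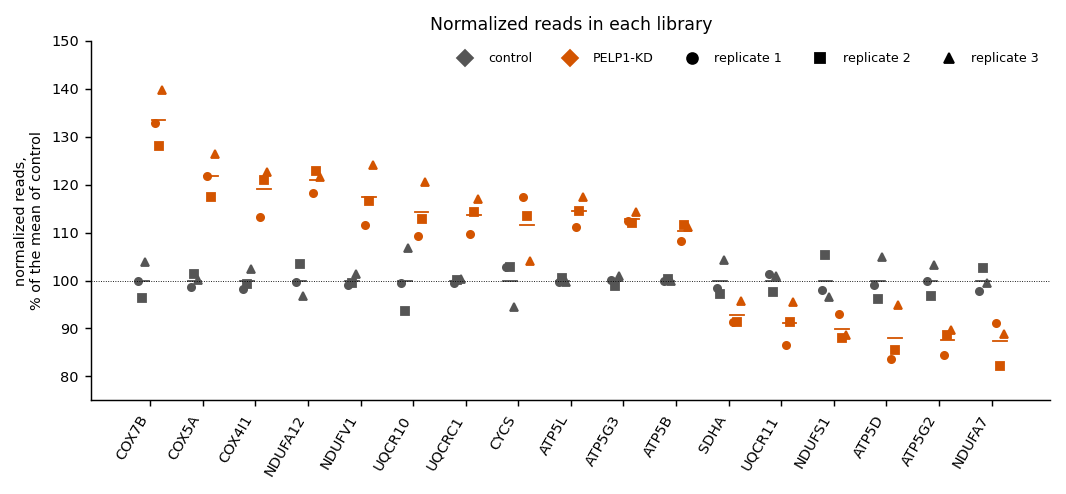
Normalized reads in each library (y axis, percent of the control mean of the same gene; the axis does not start at 0) for 17 oxidative phosphorylation genes (x axis), control in gray and PELP1-KD in orange, with the replicate number as the symbol and the group mean as a line. COX7B, COX5A, COX4I1, NDUFA12 and NDUFV1 have the highest PELP1-KD means, and the 6 genes from SDHA to NDUFA7 lie below every control library in all 3 PELP1-KD libraries.

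Complex I, NADH dehydrogenase, has a matrix arm that takes electrons from NADH and a membrane arm that pumps protons. Of its 37 genes 11 rose and 4 fell, and these counts moved with the fit. With the replicate block 14 rose and 7 fell, since NDUFA1, NDUFA4 and NDUFC1 were then called higher and NDUFA11, NDUFB5 and NDUFB6 lower. Leaving out control replicate 2 gave 6 that rose and 1 that fell, leaving out control replicate 1 gave 7 that rose, leaving out PELP1-KD replicate 2 gave 2 that fell, and leaving out PELP1-KD replicate 3 gave 7 that rose and 7 that fell.

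The genes of the NADH-oxidizing end of the matrix arm moved in both directions. NDUFV1, which binds FMN and takes the electrons from NADH (chr11:67374323-67380012), had 17758, 17860 and 18197 normalized reads in control and 20011, 20905 and 22277 in PELP1-KD, which is 117% (log2 fold change 0.23, SE 0.036; edgeR, adjusted p = 1.69e-05). Its iron-sulfur partner NDUFV2 had 5138, 5079 and 4943 in control and 5615, 5881 and 5863 in PELP1-KD, which is 115% (log2 fold change 0.20, SE 0.037; edgeR, adjusted p = 0.000161). NDUFS1, the large iron-sulfur subunit of the same module (chr2:206987803-207024243), had 3474, 3736 and 3422 in control and 3294, 3119 and 3141 in PELP1-KD, which is 89.9% (log2 fold change -0.15, SE 0.043; edgeR, adjusted p = 0.00526). The groups of all 3 genes were apart, but the call on NDUFS1 was lost without control replicate 2 (log2 fold change -0.11; edgeR, adjusted p = 0.0599).

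Other core subunits carry electrons on toward ubiquinone. NDUFS3 (log2 fold change -0.061), NDUFS7 (0.0089) and NDUFS8 (-0.034) did not pass the test, and their groups overlapped.

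Most called genes of complex I encode accessory subunits, which surround the core and are needed for assembly or stability. NDUFA12 (chr12:95365110-95397511), which sits on the matrix arm, had 1886, 1955 and 1830 normalized reads in control and 2234, 2323 and 2298 in PELP1-KD, which is 121% (log2 fold change 0.27, SE 0.043; edgeR, adjusted p = 2.4e-05). NDUFA6 (0.21), NDUFA9 (0.20), NDUFB2 (0.18), NDUFA8 (0.14), NDUFS4 (0.13), NDUFB4 (0.11), NDUFB8 (0.11) and NDUFA13 (0.093) rose too on the log2 scale, each without overlap between groups. Of these, NDUFA8, NDUFS4, NDUFB4, NDUFB8 and NDUFA13 lost the call when 1 library or another was left out, and NDUFA6, NDUFA9 and NDUFB2 did not.

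NDUFA7 fell most, with 803, 842 and 817 normalized reads in control and 747, 674 and 728 in PELP1-KD, which is 87.5% (log2 fold change -0.19, SE 0.059; edgeR, adjusted p = 0.00981). Its groups were apart, yet the call was lost in the edgeR fits without control replicate 2 (adjusted p = 0.0510) or PELP1-KD replicate 2 (adjusted p = 0.0708). NDUFV3 had a log2 fold change of -0.14 (edgeR, adjusted p = 0.0430) and lost the call on leaving out either of control replicates 2 and 3 or of PELP1-KD replicates 1 and 2. NDUFA10, the lowest complex I gene per length, had 1854, 1794 and 1790 normalized reads in control and 1804, 1874 and 1814 in PELP1-KD, a log2 fold change of 0.014 (95% interval -0.078 to 0.10). The 22 complex I genes that were not called ran from -0.13 (NDUFB5) to 0.13 (NDUFA1) in log2 fold change. NDUFA4, named for complex I and now assigned to complex IV, had a log2 fold change of 0.069 and was not called (edgeR, adjusted p = 0.115; 0.0101 with the replicate block).

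Complex III hands electrons from ubiquinol to cytochrome c. UQCRC1, a core subunit on the matrix side (chr3:48636432-48647098), had 10361, 10435 and 10445 normalized reads in control and 11418, 11894 and 12176 in PELP1-KD, which is 114% (log2 fold change 0.18, SE 0.033; edgeR, adjusted p = 0.000101). Its partner UQCRC2 had 4302, 4172 and 4190 in control and 4079, 4017 and 4165 in PELP1-KD, a log2 fold change of -0.046 that was not called (edgeR, adjusted p = 0.311). The paired core subunits thus stood on either side of 0, with 95% intervals of 0.11 to 0.25 and -0.12 to 0.031.

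Among the small subunits of complex III, UQCR10 had 2252, 2119 and 2416 normalized reads in control and 2472, 2553 and 2727 in PELP1-KD (log2 fold change 0.19, SE 0.051; edgeR, adjusted p = 0.00335). UQCRB, a ubiquinone-binding subunit, had 3792, 3659 and 3763 in control and 4293, 4267 and 3991 in PELP1-KD (log2 fold change 0.16, SE 0.040; edgeR, adjusted p = 0.00208). UQCR11 went the other way, with 3348, 3227 and 3339 in control and 2864, 3017 and 3159 in PELP1-KD, which is 91.2% (log2 fold change -0.13, SE 0.043; edgeR, adjusted p = 0.0134). In these 3 genes the groups were apart. The call on UQCR11 was lost in the edgeR fits without control replicate 1 (adjusted p = 0.0574) or PELP1-KD replicate 1 (adjusted p = 0.0705).

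CYC1, the heme subunit that reduces cytochrome c, rose to 110% (log2 fold change 0.14), and the Rieske iron-sulfur subunit UQCRFS1 (0.045), UQCRQ (0.043) and UQCRH (0.089) were not called. UQCRH was called higher with the replicate block (edgeR, adjusted p = 0.00945). UQCRHL (0.10, not called) is a near-identical copy of UQCRH, so reads of the pair may be shared between them and both values are uncertain. CYCS, the soluble carrier that is also known for its release in apoptosis (chr7:25158270-25164980), had 16004, 16018 and 14704 normalized reads in control and 18278, 17675 and 16222 in PELP1-KD. Replicate 3 was the lowest of its group in both, and the lowest PELP1-KD library still stood above the highest control library (log2 fold change 0.16, SE 0.042; edgeR, adjusted p = 0.00328).

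Complex II, succinate dehydrogenase, is shared with the citric acid cycle. It was the only complex with more called down than up, on 1 called gene of 4, which is near the share of all genes that fell. SDHA, the flavoprotein that oxidizes succinate (chr5:218356-256814), had 5443, 5381 and 5768 normalized reads in control and 5049, 5048 and 5292 in PELP1-KD, which is 92.8% (log2 fold change -0.11, SE 0.039; edgeR, adjusted p = 0.0246). The groups were apart by less than the range within control, and the call was lost in the edgeR fits without control replicate 3 (adjusted p = 0.143), PELP1-KD replicate 1 (adjusted p = 0.0603) or PELP1-KD replicate 2 (adjusted p = 0.108). SDHC, a membrane anchor, had 4002, 4020 and 3941 in control and 3752, 3841 and 3649 in PELP1-KD (log2 fold change -0.090, SE 0.038; edgeR, adjusted p = 0.0532, and 0.00725 with the replicate block). SDHB (0.058) and the other anchor SDHD (0.11) had positive log2 fold changes and were not called, and SDHD was called higher with the block (edgeR, adjusted p = 0.00579).

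ATP synthase joins a catalytic F1 head in the matrix to a membrane rotor and a side stalk. ATP5B, the catalytic beta subunit of the head (chr12:57031959-57039852), had 35466, 35645 and 35459 normalized reads in control and 38441, 39665 and 39518 in PELP1-KD, which is 110% (log2 fold change 0.14, SE 0.028; edgeR, adjusted p = 0.000233). ATP5A1, the alpha subunit that alternates with it in the head, had 16867, 16779 and 16875 in control and 16086, 16519 and 16790 in PELP1-KD, which is 97.8% (log2 fold change -0.033, 95% interval -0.096 to 0.031), and it was not called (edgeR, adjusted p = 0.385). ATP5B was above control in every PELP1-KD library, whereas ATP5A1 overlapped.

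The central stalk genes of the head also went apart. ATP5C1, the gamma subunit, had a log2 fold change of 0.11 (edgeR, adjusted p = 0.0165), and the call was lost in the edgeR fit without control replicate 3 (adjusted p = 0.0684). ATP5D, the delta subunit (chr19:1241749-1244824), had 3585, 3474 and 3792 normalized reads in control and 3024, 3097 and 3430 in PELP1-KD, which is 88.0% (log2 fold change -0.18, SE 0.048; edgeR, adjusted p = 0.00334). Its highest PELP1-KD library, replicate 3, lay just under the lowest control library, and the call held under every alternative. ATP5E, the epsilon subunit, had a log2 fold change of 0.016 and was not called.

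The c subunit, which forms the rotating ring in the membrane, is made from 3 genes, ATP5G1, ATP5G2 and ATP5G3, that differ in their targeting peptides and encode the same mature protein. ATP5G3 (chr2:176040986-176046490) had 8995, 8878 and 9063 normalized reads in control and 10093, 10050 and 10253 in PELP1-KD, which is 113% (log2 fold change 0.17, SE 0.032; edgeR, adjusted p = 0.000118). ATP5G2 (chr12:54058944-54070512) had 4745, 4594 and 4899 in control and 4013, 4206 and 4253 in PELP1-KD, which is 87.6% (log2 fold change -0.19, SE 0.040; edgeR, adjusted p = 0.000424). ATP5G1 had 2779, 2951 and 2999 in control and 3012, 3076 and 3272 in PELP1-KD (log2 fold change 0.10, SE 0.044; edgeR, adjusted p = 0.0611, and 0.00570 with the replicate block). None of the 3 genes overlapped between groups.

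ATP5G2 and ATP5G3 moved in opposite directions, so the makeup of the c subunit reads changed along with their sum. ATP5G3 held 54.0% ± 0.514 of the normalized reads of the 3 genes in control and 58.2% ± 0.673 in PELP1-KD (SD, n = 3). ATP5G2 held 28.5% ± 0.488 in control and 23.9% ± 0.415 in PELP1-KD, and ATP5G1 17.5% ± 0.597 and 17.9% ± 0.431. The summed normalized reads were 16634 ± 288 in control and 17409 ± 336 in PELP1-KD, or 105%. These shares count reads, not transcripts, since the gene models differ in length (646 bases for ATP5G1, 1287 for ATP5G2 and 3482 for ATP5G3).

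**Figure D4:**
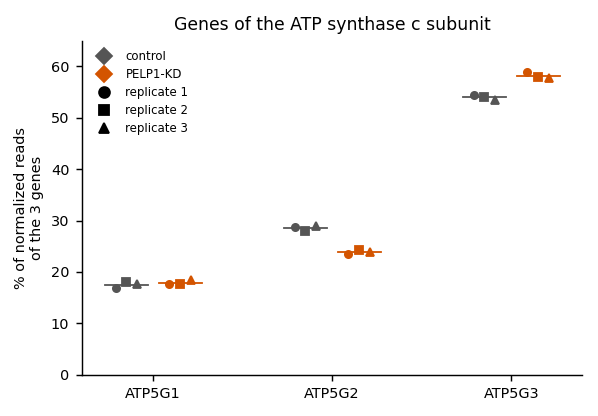
Share of the normalized reads of the 3 c subunit genes (y axis, percent) held by each gene (x axis) in each library, control in gray and PELP1-KD in orange, with the replicate number as the symbol and the mean as a line. ATP5G2 falls from 28.5% to 23.9% and ATP5G3 rises from 54.0% to 58.2%, with no overlap between groups, while ATP5G1 overlaps.

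In the membrane part and the side stalk of ATP synthase, 3 of 7 genes rose (42.9%) and none fell. Of all genes tested 26.8% were called in each direction, and 7 genes are too few to set against that share. ATP5L, the g subunit (chr11:118272104-118280562), had 4540, 4581 and 4544 normalized reads in control and 5068, 5218 and 5347 in PELP1-KD, which is 114% (log2 fold change 0.19, SE 0.037; edgeR, adjusted p = 0.000170). ATP5O, which ties the stalk to the head, rose to 110%. ATP5H, a stalk subunit, reached 112% (edgeR, adjusted p = 0.00883), but its groups overlapped at 3198 in control replicate 1 and 3161 in PELP1-KD replicate 3, and the call was lost in the edgeR fit without control replicate 2 (adjusted p = 0.0704).

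ATP5F1 (0.035), ATP5J2 (0.085), ATP5I (-0.066) and ATP5J (-0.094) did not pass the test on their log2 fold changes, and with the replicate block ATP5J2 was called higher (edgeR, adjusted p = 0.00843) and ATP5J lower (adjusted p = 0.0115). The symbol pattern also took in ATP5S and ATP5SL, which are named after ATP synthase and are not subunits of it. ATP5SL rose (log2 fold change 0.14), and ATP5S, at 204, 207 and 178 normalized reads in control and 159, 197 and 163 in PELP1-KD, had the widest interval of all (-0.42 to 0.040). The pseudogene ATP5EP2 had 4 to 6 reads per library and the ATP5L copy ATP5L2 at most 2, and neither was tested.

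Replicate 3 of both groups stood apart from the others for many of these genes. It was the highest library of its group in both groups for 32 of the 79 genes (40.5%, beside 22.8% of all genes tested), and the lowest in both for 7 (8.86%, beside 21.3%). The 32 genes, NDUFV1, COX7B, COX4I1 and ATP5D among them, had a median GC content of 54.5%, and the 7, which include CYCS, NDUFA9, SDHC and SDHD, had 40.7%. Over all genes tested the same split gave medians of 58.2% and 41.1%. In a fit corrected for gene length and GC content, chosen after seeing the data, 34 rose and 15 fell. With the block added to that correction, 37 rose and 18 fell. The share of calls that were higher was 77.8% without either, 69.4% with the correction and 67.3% with the correction and the block.

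Matches to the 4 motifs were counted on both strands from 250 bases before to 50 after the annotated start, as a description. The NRF1 core lay in the windows of 21 of the 79 tested genes (26.6%), beside 12.9% of all tested genes and 9.02% of all genes with a window. The YY1 motif AAGATGGC (reverse complement GCCATCTT) lay in 11 (13.9%, beside 4.19% and 3.09%), the ETS core CCGGAAG in 18 (22.8%, beside 16.2% and 11.6%) and the E-box CACGTG in 5 (6.33%, beside 9.17% and 7.93%). The NRF1 core was in 11 of the 28 genes that rose, 3 of the 8 that fell and 7 of the 43 not called. In complex IV, which held the 2 largest changes, 1 of 10 tested genes carried the NRF1 core and none the YY1 motif, and in ATP synthase 6 of 17 carried the NRF1 core. Matches of 1 motif on opposite strands can overlap, and such genes were counted once.

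Among the factors listed as regulators of respiratory genes, more fell than rose. The list includes TFAM, TFB1M, TFB2M, POLRMT and MTERFD3, which act in mitochondria and not on these nuclear genes. It also includes the corepressor NRIP1. Of 18 transcriptional regulators, 8 fell (44.4%, beside 26.8% of all genes tested) and 1 rose, with a median log2 fold change of -0.089. The 8 that fell include TFB1M, TFB2M, POLRMT and NRIP1, so this share does not describe nuclear activators of these genes. ESRRG, an orphan receptor of energy metabolism, fell from 149, 147 and 133 normalized reads to 54.3, 66.5 and 41.0 (log2 fold change -1.42, SE 0.161; edgeR, adjusted p = 3.6e-07). Its level was low, at 0.51 RPKM over the 6 libraries. TFB1M, which methylates mitochondrial ribosomal RNA, fell from 429, 444 and 405 to 276, 265 and 292 (log2 fold change -0.62, SE 0.078; edgeR, adjusted p = 1.62e-06). PPARGC1B, a coactivator of mitochondrial genes, was the 1 that rose, from 425, 389 and 446 to 793, 692 and 703 (log2 fold change 0.80, SE 0.074; edgeR, adjusted p = 2.38e-08). In all 3 the groups were far apart.

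The GABP subunit GABPA fell (log2 fold change -0.41), as did POLRMT, NRIP1, YY1 and, with overlapping groups, TFB2M. GABPB2 also fell, on few reads (0.52 RPKM over the 6 libraries). The more abundant GABPB1 (9.05 RPKM) had a log2 fold change of -0.0087 and was not called (edgeR, adjusted p = 0.913). NRF1 (-0.094), TFAM (-0.085) and PPARGC1A (0.23) were not called either.

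Genes listed as assembly factors, most of which build the complexes but do not stay in them, were called higher more often than lower. Of 48, 13 rose (27.1%, near the 26.8% of all genes tested) and 4 fell (8.33%, beside 26.8%), with a median log2 fold change of 0.050. UQCC, an assembly factor of complex III, had 1671, 1693 and 1803 normalized reads in control and 2098, 2174 and 2287 in PELP1-KD (log2 fold change 0.34, SE 0.047; edgeR, adjusted p = 4.39e-06), and BCS1L, which inserts the Rieske protein, had a log2 fold change of 0.29. The copper chaperones of complex IV were split: SCO2 rose (0.32) and SCO1 fell (-0.25). For complex I, NUBPL (0.29) and ECSIT (0.18) rose and FOXRED1 fell (-0.30), and for complex II, SDHAF2 rose (0.16) and C6orf57, also called SDHAF4, fell (-0.36). The number of assembly factors that fell was 2 without control replicate 1 or PELP1-KD replicate 3, and C6orf57 lost its call in both.

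Of 12 listed subunits and partners that the symbol pattern leaves out, carriers among them, 8 rose (66.7%, beside 26.8% of all genes tested) and 1 fell. The 8 include ATPIF1, HIGD1A, HIGD2A and COX7A2L, whereas NDUFAB1, NDUFA4L2 and C14orf2 were not called. SLC25A3, the phosphate carrier that feeds ATP synthase, had 19573, 19278 and 19353 normalized reads in control and 22521, 22770 and 22687 in PELP1-KD (log2 fold change 0.22, SE 0.029; edgeR, adjusted p = 1.76e-06). SLC25A5, an ADP/ATP carrier, had 13095, 13066 and 13147 in control and 14927, 14994 and 15322 in PELP1-KD (log2 fold change 0.20, SE 0.030; edgeR, adjusted p = 1.15e-05). Both were above control in every PELP1-KD library. SLC25A6 was the 1 called lower, on few reads and with overlapping groups; its annotation lies on 2 chromosomes, its value is uncertain, and the call was lost without control replicate 1 (log2 fold change -0.56; edgeR, adjusted p = 0.185) and also without control replicate 2, PELP1-KD replicate 1 or PELP1-KD replicate 3.

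Among 17 genes of pyruvate dehydrogenase and the citric acid cycle, 5 rose (29.4%) and 3 fell (17.6%), beside 26.8% of all genes tested in each direction, with a median log2 fold change of 0.058. Subunits of the same enzyme differed in sign here as well. PDHA1 rose (0.21), while DLAT (-0.21), a partner in pyruvate dehydrogenase, fell. FH, fumarase, had 3617, 3738 and 3817 normalized reads in control and 3162, 3076 and 3236 in PELP1-KD (log2 fold change -0.24, SE 0.040; edgeR, adjusted p = 4.77e-05), and IDH3A, of isocitrate dehydrogenase, had 1794, 1881 and 1752 in control and 2191, 2240 and 2015 in PELP1-KD (log2 fold change 0.25, SE 0.048; edgeR, adjusted p = 0.000245).

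**Figure D5:**
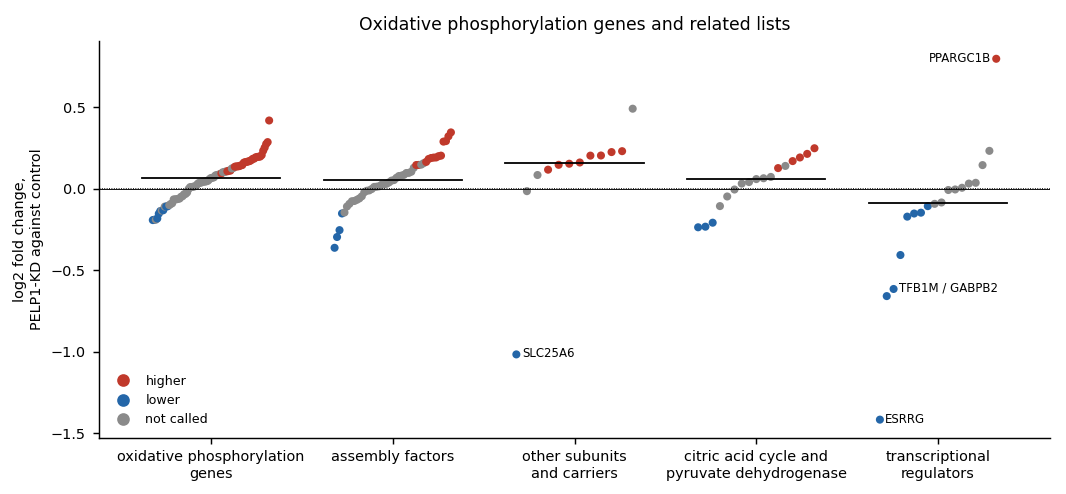
Log2 fold change (y axis, PELP1-KD against control) of the tested oxidative phosphorylation genes and of 4 related gene lists (x axis), sorted within each list, with the list median as a line and called genes in red (higher) or blue (lower). The regulators spread from -1.42 (ESRRG) to 0.80 (PPARGC1B) with a median of -0.089, and the oxidative phosphorylation genes from -0.19 to 0.42 with a median of 0.065.

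Several members share reads with other genes. NDUFC2, ATP5E and ATP5J2 overlap read-through genes on the same strand over 785, 291 and 181 bases of their exons, and none of the 3 was called. Reads placed at several sites were counted as fractions, and 70 of the 87 genes had a value that was not whole in at least 1 library.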

How the data were processed

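RNA-seq counts of Hep3B cells were analysed for 3 control and 3 PELP1-KD libraries, grouped by the treatment labels. The values are estimated counts per gene as deposited: per the file headers, the authors ran featureCounts 1.5.0-p1 on exons of the UCSC hg19 annotation, strand-specific, with a mapping quality of at least 2, with reads placed at several sites counted as fractions and reads over several genes counted for each. The values show that the latter were counted in full. The submitters' processing notes list HISAT2 and SAMtools, whereas the methods name TopHat2 and HTSeq; the labels also disagree on the RNA kit (poly(A) selection or ribosomal RNA depletion) and on single or paired reads. Which of these applies is not given in the sources used here.

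Counts were rounded and tested with edgeR 4.0.16 (quasi-likelihood, robust, TMM, filterByExpr, group only) in R 4.3.3 over the 14537 genes that passed the filter, with Benjamini-Hochberg adjustment, and called at an adjusted p below 0.05. For normalized reads, each rounded count was divided by its library's TMM-scaled size, itself expressed against the geometric mean of the 6 libraries. RPKM uses the same scaled size and the exon length in the files. SE is the log2 fold change divided by the root of the F statistic, and 95% intervals use the degrees of freedom of the edgeR test (median 19.1). Intervals, and the limit of 3 reads at a count of 0, do not cover errors beyond counting and replicate spread. Genes with full values were up to 3 called genes without overlap per complex and direction with the smallest p, the isoform pairs, the extremes by RPKM, and up to 2 called genes per direction in the other lists; further genes are named with their values after these were seen. The values of 1 gene of complex I are not reported here, although the counts include it. The members and lists were chosen with earlier results of these data known.

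Same-numbered libraries deviated together over 6370 genes (r = 0.336, 0.247 and 0.666), so the replicate number was used as a block in an alternative. Libraries with different numbers had r of -0.569 to 0.418, and control replicate 2 correlated more with PELP1-KD replicate 1 (r = 0.418) than with replicate 2, so that the numbers set apart replicate 3 and not replicates 1 and 2. Between replicates, chi-square per degree of freedom was 1.92 to 6.76, so no pair of libraries agreed within sampling noise. Other alternatives were DESeq2 1.42.0, other scalings and filters, unrounded counts, length and GC corrections by loess (span 0.3), an adjusted p below 0.01 and leaving out each library. Promoter windows were read from the GRCh37 sequence, which is that of hg19.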

Additional observations from a re-analysis of the deposited data

How the results depend on the processing

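Of the 36 called oxidative phosphorylation genes, 23 (21 higher, 2 lower) kept their call and direction in all 20 alternatives, 13 lost the call in at least 1, and 20 uncalled genes were called in at least 1; no direction was reversed. The median log2 fold change was 0.049 to 0.082, and no gene reached 2-fold. With the replicate block, alone or with the length correction, 13 genes fell, 7 in complex I and 2 in complex II, where 1 rose. With the length and GC correction, chosen after seeing the data, 15 fell (7 in complex I, 2 in complex II, 5 in ATP synthase) and 1 rose in complex II. With that correction and the block, 18 fell (9 in complex I, 2 in complex II, 1 in complex IV, 5 in ATP synthase), 1 rose in complex II, and 7 assembly factors fell. Complex II had 2 lower calls with DESeq2's size factors, upper-quartile scaling or at least 10 reads in every library. DESeq2 called 7 complex I genes higher and 2 assembly factors lower. At an adjusted p below 0.01, 4 genes fell (2 in complex I, 0 in complexes II and III), 6 rose in complex I, and 2 assembly factors fell. Leaving out 1 library gave 5 to 12 genes that fell, in complex I 6 to 11 that rose and 1 to 7 that fell, in complex II 0 to 1 in each direction, in complex III 0 to 1 that fell, and 2 to 5 assembly factors that fell. The replicate block changed the calls of the 13 genes whose blocked values differ in call, each from not called to called, and of no gene already called. The causes of these differences were not tested.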
